A study of Mus musculus with 2 samples.

Results

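Cells named here mature migratory dendritic cells were set against cells named resting type 2 dendritic cells inside tumours. These names are labels, and neither migration nor rest was measured. The mature cells were the 125 cells of subcluster 12 at resolution 0.8 in the authors' deposited annotation, and the resting cells were the 524 cells of subcluster 4, out of 5976 cells in all. All of them lie in the cluster of 693 cells that the authors name by Ifitm1. The cells came from mouse tumours and were sorted as CD45-positive and JAML-positive, in a series that studies JAML, a surface adhesion receptor, on tumour-resident memory T cells. Per the hashtag names, all 3 mice carried B16F10 tumours, a melanoma line, and received an isotype control antibody. There was therefore 1 experimental group, no treated group, and no strain, age or sex in the labels. Although the labels name T cells, the compared cells are called dendritic here by their transcripts. The 6 dendritic cell markers, with the class II genes H2-Ab1 and Cd74 among them, summed to 23012 to 28567 CPM (counts per 1000000 UMIs) in subcluster 12. In subcluster 4 they summed to 37950 to 40143 CPM. Flt3 and Itgax, also among the 6 and given below, were far lower than H2-Ab1 in both subclusters. Of the 6 markers, 2 were higher and 3 lower in subcluster 12 at an edgeR adjusted p under 0.05 (all genes: 21.4% and 21.3%). T-cell markers summed to 170 to 386 CPM in subcluster 12 and 210 to 349 CPM in subcluster 4. One droplet library made with 5' chemistry held all 3 mice, which were told apart by antibody hashtags, so the mice share capture and sequencing. Each comparison was made in pairs within a mouse.

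Dendritic cells take up antigen in tissues and present it to T cells. On maturation they reduce uptake, gain costimulatory ligands, and express CCR7, the receptor that guides them along lymph to the draining node. This mature state can be reached from type 1 and from type 2 dendritic cells, whose subset markers fade on the way. NF-kB transcription factors are central to the switch, and some of their inhibitors are themselves NF-kB targets, which closes a negative feedback loop.

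Mouse 1 gave 47 cells of subcluster 12 and 277 of subcluster 4, mouse 2 gave 24 and 104, and mouse 3 gave 54 and 143. Among the cells of both subclusters, subcluster 12 made up 14.5% in mouse 1, 18.8% in mouse 2 and 27.4% in mouse 3 (exact Clopper-Pearson 95% intervals 10.9 to 18.8%, 12.4 to 26.6% and 21.3 to 34.2%). Of all cells of each mouse it made up 1.92%, 2.03% and 2.31%, shares that depend on the sort. Summed UMI counts, which are counts of captured transcript molecules, ranged between 494969 and 970475 per mouse in subcluster 12 and between 2734281 and 6901013 in subcluster 4. Median depth per cell was 18763 UMIs in subcluster 12 and 24416 in subcluster 4. No doublet caller was run, and no cell barcode was shared between mice (0 barcodes). Cells with at least 2 UMIs in sum from T-cell, B-cell, plasmacytoid and macrophage genes (Cd3d, Cd3e, Cd3g, Cd79a, Siglech, C1qa) made up 16.7 to 25.5% of subcluster 12 and 26.6 to 29.6% of subcluster 4 over the mice. Intervals and floors cover counting error only. The p-values rest on how the difference within a mouse varied over 3 mice of 1 library. For each gene that spread was estimated partly from all genes.

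The subclusters were built from the same transcripts that are compared here. Fold changes between them are therefore a description, and a gene is named "called" where the edgeR adjusted p was under 0.05. A second comparison did not use the subclusters. The UMIs of every cell were split at random into 2 parts. Cells with at least 2 UMIs of Fscn1 and none of Cd209a in the first part (the Fscn1 gate, 89 cells) were set against cells with at least 2 UMIs of Cd209a and none of Fscn1 (the Cd209a gate, 653 cells). Levels were compared on the second part. Of the Fscn1 gate 96.6% lay in subcluster 12, and of the Cd209a gate 60.6% lay in subcluster 4. A further 86, 22 and 66 of its 653 cells lay in subclusters 0, 9 and 13, where Siglech, a plasmacytoid surface lectin, averaged 2195, 2504 and 277 CPM, against 8.88 CPM in subcluster 4. The Cd209a gate is therefore not made of type 2 cells alone. Without cells that held first-part UMIs of Siglech, Ly6d or Klk1, the gates held 76 and 405 cells, of which 79.5% of the Cd209a gate lay in subcluster 4, and 2418 of 6515 genes (37.1%) passed. Adjusted p-values below are from this gate comparison by edgeR, unless another comparison is named beside them. A gradient of maturation would also give differences, so the comparison does not show separate cell types.

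The sequences shown here are promoters of 3 genes of the NF-kB pathway, chosen after their values were seen because 21 of the 23 tested genes of that list were called higher in subcluster 12, against 21.4% of all genes tested. They are RefSeq promoters of GRCm38.p6, from 250 bases before to 50 bases after the gene's start, and capitals mark matches to GGGNNTTTC or GGGAANTCC on either strand, which are loose spellings of NF-kB sites. Only promoters that hold a match were considered for printing. Nfkb2 has further promoters, with 2 matches and 1 match, and the one shown has 3. Tnfaip3, with 2 matches, is not shown.
Nfkbia, chr12:55492598-55492897, minus strand: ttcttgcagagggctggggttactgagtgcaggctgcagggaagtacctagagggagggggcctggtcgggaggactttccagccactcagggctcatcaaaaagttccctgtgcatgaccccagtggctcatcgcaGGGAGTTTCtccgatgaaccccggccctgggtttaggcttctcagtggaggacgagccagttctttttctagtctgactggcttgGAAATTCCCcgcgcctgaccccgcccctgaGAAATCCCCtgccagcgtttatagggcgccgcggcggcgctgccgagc
Nfkb2, chr19:46304487-46304786, plus strand: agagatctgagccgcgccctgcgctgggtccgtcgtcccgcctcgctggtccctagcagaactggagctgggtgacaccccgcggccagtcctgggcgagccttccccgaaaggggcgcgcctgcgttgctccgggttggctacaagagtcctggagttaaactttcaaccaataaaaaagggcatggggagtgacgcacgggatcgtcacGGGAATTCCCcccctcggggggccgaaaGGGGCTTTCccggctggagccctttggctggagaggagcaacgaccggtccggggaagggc
Rel, chr11:23770920-23771219, minus strand: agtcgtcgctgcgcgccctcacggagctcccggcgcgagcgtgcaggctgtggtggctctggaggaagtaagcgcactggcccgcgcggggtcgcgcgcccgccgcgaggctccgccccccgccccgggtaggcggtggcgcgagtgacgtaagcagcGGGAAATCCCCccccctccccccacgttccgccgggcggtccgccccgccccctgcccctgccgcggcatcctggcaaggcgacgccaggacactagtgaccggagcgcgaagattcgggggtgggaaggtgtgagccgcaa
Nfkbia encodes an inhibitor that holds NF-kB in the cytoplasm, Nfkb2 encodes the p100 precursor of the non-canonical pathway, and Rel encodes the c-Rel subunit. Matches can overlap, as both matches do in Rel. GGGNNTTTC was in the promoters of 7 of the 19 NF-kB list genes that have a promoter in the RefSeq table (Nfkb2, Rel, Rela, Nfkbia, Tnfaip3, Traf2 and Traf3), against 5.06% of all 27025 genes with a promoter. In the migratory maturation list it was in 2 of 30, which were Apol7c and Stap2. It was in 6.26% of 1438 genes called higher in subcluster 12 and in 5.35% of 1457 genes called lower. GGGAANTCC was in 1.44% of all genes with a promoter and 2.25% of those tested, in 3.27% of the higher and 1.44% of the lower genes, and in 4 of the 19 NF-kB genes. The spellings were picked after longer ones had been tried on the same data, and a match is a run of letters, not a bound site.

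The label was checked against fixed markers. The summed level of 8 markers of mature migratory dendritic cells was 6875, 6241 and 6783 CPM in subcluster 12 of mice 1, 2 and 3, against 91.1, 84.8 and 93.3 CPM in subcluster 4. The 6 type 2 markers summed to 242, 295 and 267 CPM in subcluster 12, against 2894, 3288 and 2869 CPM in subcluster 4. Neither pair of groups overlapped, and the same transcripts had built the subclusters. The 6 type 1 markers summed to 16.5 to 24.2 CPM in subcluster 12 and to 19.9 to 28.5 CPM in subcluster 4, against 907 to 1247 CPM in subcluster 6, which is the type 1 dendritic cell-like class of 369 cells. In cells thinned to 14628 UMIs, 62 of 96 cells of subcluster 12 held UMIs of type 2 markers only, 5 of type 1 markers only, 9 of both and 20 of neither. UMIs of both kinds were in 164 of 358 thinned cells of subcluster 6 and 119 of 488 of subcluster 4, so a UMI alone does not assign a cell to a type. The median type 2 marker count in the subcluster 12 cells was 1 UMI, against 36 UMIs in subcluster 4 and 0 UMIs in subcluster 6. By these markers subcluster 12 is mature migratory dendritic cell-like and subcluster 4 type 2 dendritic cell-like. Whether the mature cells came from type 2 cells was not measured.

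**Figure D1:**
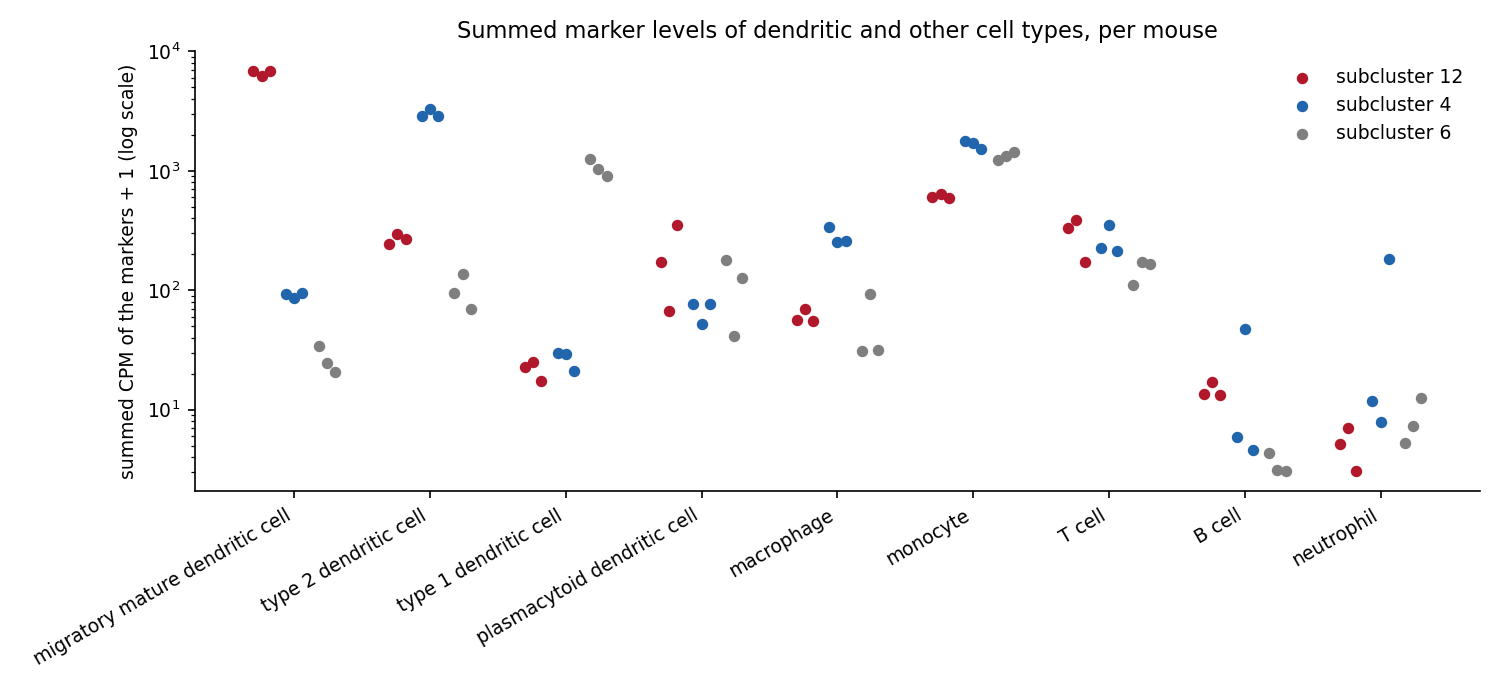
Summed CPM plus 1 (log scale) of each marker list in subclusters 12, 4 and 6, with 1 point per mouse. The maturation sum lies between 6241 and 6875 CPM in subcluster 12 and is at most 93.3 CPM in subclusters 4 and 6, and the plasmacytoid sum is widest in subcluster 12.

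Plasmacytoid dendritic cell markers stood apart. Their 6 genes summed to 171, 66.7 and 351 CPM in subcluster 12, against 75.9, 51.6 and 75.5 CPM in subcluster 4. All 6 were detected in both subclusters, and 5 were called higher in subcluster 12 (all genes: 21.4%). Siglech had 32.3, 16.2 and 102 CPM in subcluster 12, against 14.3, 2.2 and 10.1 CPM in subcluster 4. The part of these cells in the results was not tested, and the genes they could touch (Irf8, Tcf4, Spib) are given with a gate that leaves out cells with first-part UMIs of Siglech, Ly6d or Klk1. Macrophage markers summed to 54.6 to 68.7 CPM in subcluster 12 and 252 to 337 CPM in subcluster 4. Of 7 tested, 6 were called lower and 1 higher in subcluster 12 (all genes: 21.3% and 21.4%). Neutrophil markers summed to 181 CPM in subcluster 4 of mouse 3 against at most 10.7 CPM in the other mice of that subcluster, and B-cell markers to 46.1 CPM in subcluster 4 of mouse 2.

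Over all genes, 3653 of 8551 tested (42.7%) were called between the subclusters, of which 1832 (21.4%) were higher and 1821 (21.3%) lower in subcluster 12. With plain library size in place of TMM scaling these were 1373 and 2532, since the median log2 fold change of all genes moved to -0.23, against -0.02 with TMM. CPM values here are on plain totals, and fold changes are on TMM scaling. In the gate comparison 2584 of 7602 genes (34.0%) passed, 17.1% higher and 16.9% lower. Of 3389 genes called between subclusters and also tested between the gates, 2360 passed in the same direction and 6 in the opposite direction. The comparisons share cells, since 86 of 89 cells of the Fscn1 gate lay in subcluster 12. Of the Cd209a gate, 396 of 653 cells lay in subcluster 4. The UMIs of these cells that were compared between the gates also count in the subcluster sums. The gate genes Fscn1 and Cd209a themselves differ strongly between the subclusters. A shared direction was therefore largely set beforehand and is a description, not a replication.

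**Figure D2:**
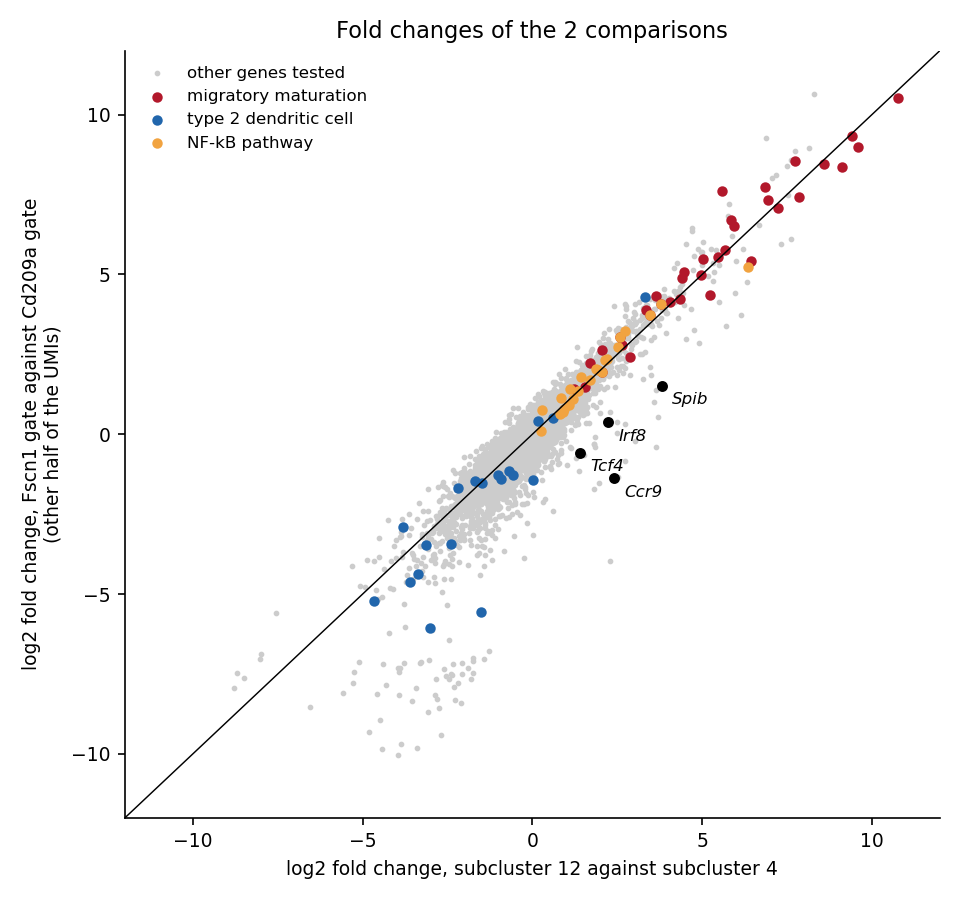
Each point is a gene, with its log2 fold change between subclusters 12 and 4 on the x axis and between the Fscn1 and Cd209a gates on the y axis. Maturation and NF-kB genes lie along the line of equality, and Irf8, Tcf4, Spib and Ccr9 lie under it. The gates share cells with the subclusters, so the axes are not independent.

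All 37 tested genes of the migratory maturation list, of 38 listed, were called higher, with a median log2 fold change of 5.01, against -0.02 over all genes. This list holds the fixed markers, and 21.4% of all genes were called in this direction. It also shares genes with lists given below, so their counts are not separate. Among these are Cd274, Pdcd1lg2, Cd200 and Il4i1 (T cell inhibition) and Relb, Traf1, Birc2 and Birc3 (NF-kB). Ccr7, Ccl22, Ccl17 and Ccl5 are shared with the chemokine list, and Birc2, Birc3 and Bcl2l14 with the survival list. In the gate comparison 35 of 35 tested members passed as higher (all genes: 17.1%). Fscn1, the actin-bundling protein fascin, lies on chromosome 5 from 142960343 to 142973185 (mm10). It had 1334, 1372 and 1606 CPM in subcluster 12, against 0.58, 0.37 and 2.08 CPM in subcluster 4, a log2 fold change of 10.71 ± 0.21 (SE, n = 3 mice). Every mouse was high in subcluster 12 and near 0 in subcluster 4. After thinning, 76.0% of subcluster 12 cells had a Fscn1 UMI, against 1.23% in subcluster 4 and 0.84% in subcluster 6. Unthinned shares were 80.8%, 2.10% and 1.90%.

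**Figure D3:**
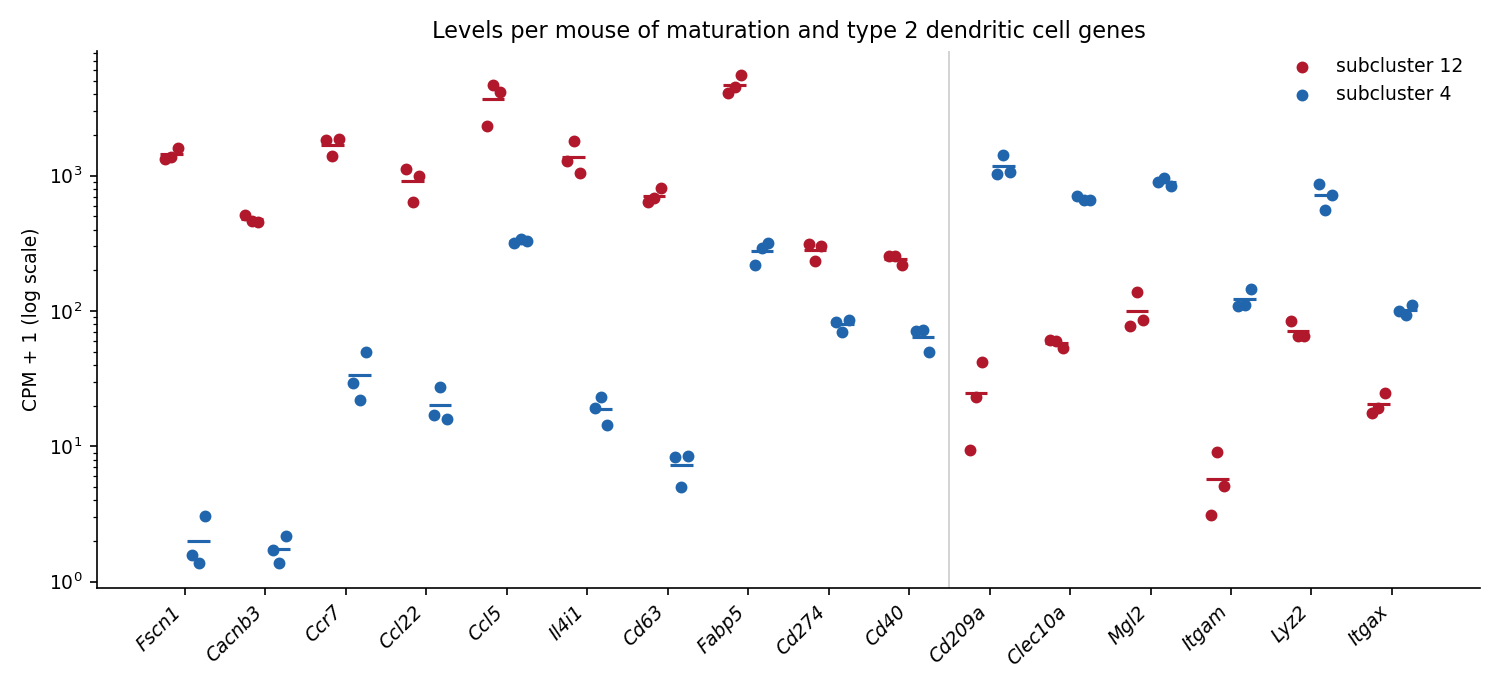
CPM plus 1 (log scale) of 16 genes, with 1 point per mouse and a line at the mean, subcluster 12 left of subcluster 4. The genes left of the grey line are higher in every mouse of subcluster 12, and those to the right are lower.

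Apol7c, an apolipoprotein L family gene, had 231 UMIs in subcluster 12 and 0 in subcluster 4, so it was at least 413-fold higher (3 UMIs over the group as the floor). Its level was 38.6, 30.3 and 184 CPM in subcluster 12, and mouse 3 was far above the other two. Slco5a1, a solute carrier, was at least 150-fold higher by the same floor. Cacnb3, a calcium channel beta subunit, had 508, 461 and 458 CPM in subcluster 12, against 0.73, 0.37 and 1.19 CPM in subcluster 4. Its log2 fold change was 9.34 ± 0.26 between the gates (edgeR adjusted p = 2.9e-15). Cd63, a tetraspanin of late endosomes, had 641, 681 and 805 CPM in subcluster 12, against 7.39, 4.02 and 7.43 CPM in subcluster 4. Fabp5, a fatty acid-binding protein, had 4084, 4491 and 5532 CPM in subcluster 12, against 219, 293 and 318 CPM in subcluster 4. None of these groups overlapped. The genes were chosen with results of these data known, and the share of all genes without overlap was not counted, so this is a description. Lamp3, a further maturation gene, had 0 UMIs in both subclusters.

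Among chemokines and their receptors, 9 of 20 tested genes were called higher and 9 lower (all genes: 21.4% and 21.3%). Their median log2 fold change was 0.43. Ccr7, on chromosome 11 from 99144196 to 99155077, had 1824, 1406 and 1860 CPM in subcluster 12, against 28.4, 20.8 and 49.0 CPM in subcluster 4. Between the gates its log2 fold change was 6.51 ± 0.25 (edgeR adjusted p = 2.4e-13). Ccl22, a ligand of the receptor CCR4 on regulatory and type 2 helper T cells, had 1121, 640 and 1000 CPM in subcluster 12, against 16.1, 26.3 and 14.9 CPM in subcluster 4. The 3 mice were all far above their subcluster 4 cells. Ccl5, a chemokine that attracts T cells, had 2345, 4645 and 4160 CPM in subcluster 12, against 317, 337 and 328 CPM in subcluster 4. Its log2 fold change between the subclusters was 3.65. Without the cells described above that held at least 2 UMIs of genes of other lineages, it was 5.48. The part of such cells in the subcluster 4 level was not tested. Ccl17, the other CCR4 ligand and named here after its values were seen, overlapped, with 244, 86.9 and 471 CPM in subcluster 12 against 85.8, 193 and 122 CPM in subcluster 4. It was lower in mouse 2 and higher in the other two mice, with a gate log2 fold change of 1.41 ± 0.42 (edgeR adjusted p = 0.014). In thinned cells of subcluster 12, Ccl17 UMIs were found in 34 of 96 cells and each of these 34 also held Ccl22, which was in 76 of the 96. Cxcl16, the ligand of CXCR6, had 612, 493 and 606 CPM in subcluster 12, against 87.7, 66.6 and 94.8 CPM in subcluster 4. Ccr2, the receptor for inflammatory chemokines that draw monocytes, had 8.34, 20.2 and 13.4 CPM in subcluster 12, against 314, 316 and 309 CPM in subcluster 4, a log2 fold change of -4.23 ± 0.28 between the gates (edgeR adjusted p = 4.2e-10).

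Genes of T cell costimulation were called higher in 10 of 12 tested and lower in 2 (all genes: 21.4% and 21.3%). Their median log2 fold change was 2.04. Between the gates 9 of 10 passed as higher and 1 as lower (all genes: 17.1% and 16.9%). Cd40, the receptor through which helper T cells license dendritic cells, had 254, 253 and 217 CPM in subcluster 12, against 70.0, 71.7 and 48.7 CPM in subcluster 4 (gate log2 fold change 2.31 ± 0.19, edgeR adjusted p = 8.8e-09). Cd80 and Cd86 encode the CD28 ligands. Cd80 had 104, 66.7 and 91.7 CPM in subcluster 12, against 22.2, 22.3 and 37.5 CPM in subcluster 4. Cd86 had 311, 242 and 194 CPM in subcluster 12, against 129, 105 and 124 CPM in subcluster 4. Cd70, the ligand of CD27, had 53.2, 58.6 and 31.9 CPM in subcluster 12, against 0.44, 0.37 and 0 CPM in subcluster 4, and 26.0% of thinned subcluster 12 cells held a UMI. Ly75, the antigen-uptake receptor DEC-205, had 179, 131 and 104 CPM in subcluster 12, against 6.96, 2.56 and 4.76 CPM in subcluster 4. As a member of this list it is among the 10 called higher, although it is an uptake receptor. Tnfsf9, the ligand of 4-1BB, overlapped, with 124, 150 and 59.8 CPM in subcluster 12 against 48.8, 56.7 and 60.9 CPM in subcluster 4. Mouse 3 showed no excess. The 2 genes called lower were Cd48, an adhesion ligand, and Tnfsf8, the ligand of CD30, which had 0 UMIs in subcluster 12 and was at least 10.1-fold lower there by the same floor. Both are named because the count is 2.

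Genes of T cell inhibition moved both ways, with 7 of 11 tested called higher and 4 lower (all genes: 21.4% and 21.3%). Of those called higher, Cd274, Pdcd1lg2, Cd200 and Il4i1 are also on the migratory maturation list. Cd274, which encodes PD-L1, had 312, 232 and 300 CPM in subcluster 12, against 82.5, 69.1 and 85.0 CPM in subcluster 4. Between the gates its log2 fold change was 2.64 ± 0.17 (edgeR adjusted p = 3.1e-10). Pdcd1lg2, which encodes PD-L2, had 123, 62.6 and 132 CPM in subcluster 12, against 42.5, 35.5 and 36.6 CPM in subcluster 4. UMIs of Cd274 were in 93.8% and of Pdcd1lg2 in 63.5% of thinned subcluster 12 cells, against 50.2% and 33.0% in subcluster 4. Il4i1, an amino acid oxidase that restrains T cells, had 1294, 1810 and 1043 CPM in subcluster 12, against 18.3, 22.3 and 13.4 CPM in subcluster 4. Cd200, the ligand of an inhibitory myeloid receptor, had 241, 129 and 192 CPM in subcluster 12, against 3.77, 12.4 and 4.16 CPM in subcluster 4. The lower genes were Lgals9, Havcr2, Vsir and Entpd1, named because they are 4. Lgals9, which encodes galectin-9, had 8.34, 10.1 and 4.12 CPM in subcluster 12, against 72.6, 72.0 and 67.2 CPM in subcluster 4 (gate log2 fold change -3.31 ± 0.43, edgeR adjusted p = 5.5e-06). Havcr2 did not pass between the gates (-1.83 ± 0.75, edgeR adjusted p = 0.068).

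**Figure D4:**
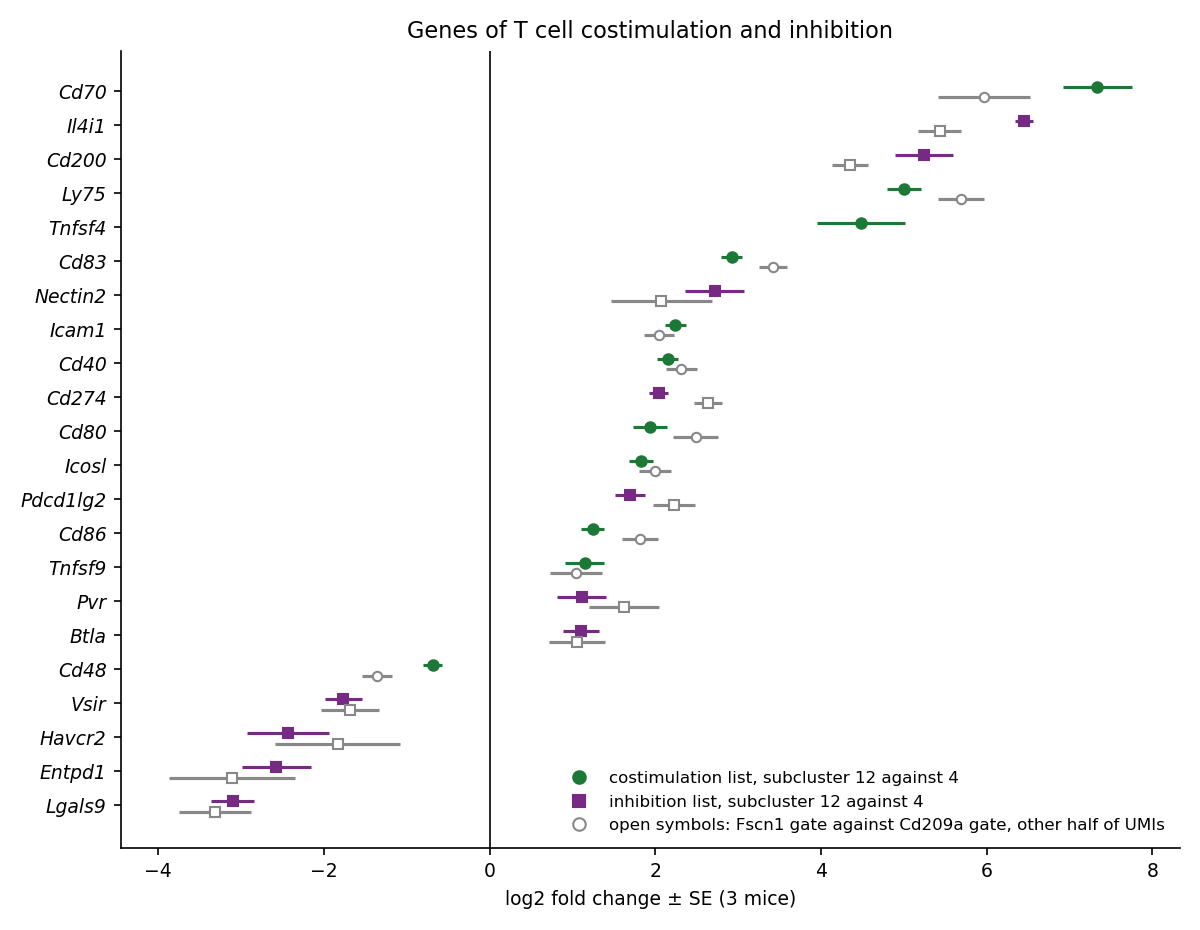
Log2 fold change with its SE over 3 mice of 22 genes. Filled symbols are subcluster 12 against 4 and open symbols are the Fscn1 gate against the Cd209a gate, for genes tested there. Cd70 has the largest filled value, and Lgals9 the lowest.

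In the list of cytokines and their receptors, 10 of 25 tested genes were called higher and 8 lower (all genes: 21.4% and 21.3%). Il12b, the shared subunit of interleukins 12 and 23, had 292, 224 and 59.8 CPM in subcluster 12, against 1.74, 0.37 and 0.89 CPM in subcluster 4, and mouse 3 was the lowest of the mature samples. Its UMIs were in 24 of 96 thinned subcluster 12 cells, against 0.61% in subcluster 4 and 0.84% in subcluster 6. All 24 also held Ccl22. Il15 and Il15ra, which are presented together at the cell surface, were both higher. Il15 had 33.4, 34.3 and 42.2 CPM in subcluster 12, against 9.27, 6.22 and 5.65 CPM in subcluster 4. Il2ra, the alpha chain of the interleukin 2 receptor, had 74.1, 60.6 and 70.1 CPM in subcluster 12, against 2.46, 2.19 and 1.78 CPM in subcluster 4. Flt3, the growth factor receptor of dendritic cells, had 141, 178 and 141 CPM in subcluster 12, against 24.3, 26.0 and 32.7 CPM in subcluster 4, and 181 to 194 CPM in subcluster 6.

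NF-kB pathway genes were called higher in 21 of 23 tested and lower in 0 (all genes: 21.4% and 21.3%). Their median log2 fold change was 1.70. Between the gates 21 of 23 passed as higher (all genes: 17.1%). Of the other 2, Nfkbiz and Tnfaip2 did not pass. Relb, the non-canonical subunit, had 593, 529 and 578 CPM in subcluster 12, against 49.6, 44.6 and 48.5 CPM in subcluster 4 (gate log2 fold change 4.08 ± 0.16, edgeR adjusted p = 2.9e-13). The genes whose promoters are printed above were among those that passed. Nfkbia had 1376, 1180 and 1520 CPM in subcluster 12, against 352, 515 and 616 CPM in subcluster 4. Nfkb2 had 203, 184 and 185 CPM in subcluster 12, against 49.99, 48.3 and 47.0 CPM in subcluster 4. Rel had 464, 376 and 587 CPM in subcluster 12, against 125, 129 and 199 CPM in subcluster 4. None of these groups overlapped, which is a description of genes chosen after their values were seen. Birc2 and Traf1, ubiquitin ligase and adaptor of tumour necrosis factor receptors, had 372 to 405 and 838 to 950 CPM in subcluster 12, against 39.1 to 42.3 and 156 to 195 CPM in subcluster 4. Tnfrsf4, the receptor OX40, had 203, 107 and 198 CPM in subcluster 12, against 3.48, 1.83 and 1.49 CPM in subcluster 4.

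Among genes of survival and death, 12 of 19 tested were called higher and 4 lower (all genes: 21.4% and 21.3%). Bcl2a1b, an anti-apoptotic BCL2 relative, had 2296, 1996 and 2211 CPM in subcluster 12, against 610, 456 and 510 CPM in subcluster 4. It belongs to a family of near-identical copies between which reads can be split. Bcl2l14 had 275, 238 and 148 CPM in subcluster 12, against 6.38, 4.39 and 6.24 CPM in subcluster 4.

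Genes of the type 2 dendritic cell list were called lower in 15 of 20 tested and higher in 1, with a median log2 fold change of -1.59, against a background of 21.3% called lower. Between the gates 16 of 19 passed as lower (all genes: 16.9%). Cd209a, a C-type lectin on chromosome 8 from 3743397 to 3748984, had 8.34, 22.2 and 41.2 CPM in subcluster 12, against 1032, 1428 and 1064 CPM in subcluster 4. After thinning it was seen in 10.4% of subcluster 12 cells, against 82.8% in subcluster 4 and 12.6% in subcluster 6, the type 1-like class. The unthinned shares were 15.2%, 85.5% and 16.3%, at median depths of 18763, 24416 and 26945 UMIs. Its level in subcluster 6 was 15.4, 67.8 and 16.5 CPM, so mouse 2 raises that class, and in the T cell-like subcluster 1 it was 10.1, 11.6 and 6.81 CPM. Itgam, the integrin CD11b, had 2.09, 8.08 and 4.12 CPM in subcluster 12, against 109, 110 and 144 CPM in subcluster 4 (gate log2 fold change -5.20 ± 0.49, edgeR adjusted p = 8.3e-08). Clec10a, a lectin for galactose-type sugars, had 60.5, 58.6 and 52.6 CPM in subcluster 12, against 703, 662 and 655 CPM in subcluster 4. Sirpa, the receptor of CD47, was less reduced, with 90.7, 66.7 and 80.4 CPM in subcluster 12, 150, 133 and 158 CPM in subcluster 4 and 5.14 to 10.1 CPM in subcluster 6. Ramp3, a receptor-modifying protein, was the 1 gene of the list that was higher, with 365, 275 and 438 CPM in subcluster 12, against 36.5, 32.9 and 57.1 CPM in subcluster 4. Itgax, the integrin CD11c, had 16.7, 18.2 and 23.7 CPM in subcluster 12, against 99.8, 92.9 and 110 CPM in subcluster 4.

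Genes of innate sensing and uptake were called lower in 12 of 19 tested and higher in 0 (all genes: 21.3% and 21.4%). Their median log2 fold change was -2.25. Ly75, the uptake receptor given above as higher in subcluster 12, is on the costimulation list and not in these counts. Fcgr2b and Fcgr1, receptors for antibody-coated targets, had 26.1 to 29.9 and 13.4 to 19.8 CPM in subcluster 12, against 207 to 273 and 133 to 141 CPM in subcluster 4. Clec4n, which encodes the fungal receptor dectin-2, had 25.03, 22.2 and 41.2 CPM in subcluster 12, against 224, 223 and 238 CPM in subcluster 4. The summed levels of macrophage and of monocyte markers were also lower in subcluster 12, and their part in this was not tested.

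Class II presentation genes were called lower in 7 of 13 tested and higher in 1 (all genes: 21.3% and 21.4%). Their median log2 fold change was -0.33. With plain library size 11 were lower and 1 higher (all genes: 2532 and 1373 of 8551). The chaperone H2-DMb1 had 143, 210 and 159 CPM in subcluster 12, against 1135, 1154 and 1134 CPM in subcluster 4 (gate log2 fold change -3.00 ± 0.15, edgeR adjusted p = 5.3e-12). H2-Ab1, a class II chain, had 5457, 6970 and 5323 CPM in subcluster 12, against 11633, 12129 and 12006 CPM in subcluster 4. March1, the ubiquitin ligase that removes class II and CD86 from the surface, had 1.04, 6.06 and 1.03 CPM in subcluster 12, against 92.2, 75.3 and 78.5 CPM in subcluster 4. Cd74, the invariant chain, had a log2 fold change of -0.27 ± 0.05. Class I genes were called higher in 15 of 21 tested and lower in 3 (all genes: 21.4% and 21.3%). Psme2, a proteasome activator subunit, had 1396, 1438 and 1372 CPM in subcluster 12, against 597, 609 and 480 CPM in subcluster 4. H2-Q6 and H2-Q7, class I genes with close copies, had 232 to 332 and 778 to 900 CPM in subcluster 12, against 48.6 to 66.1 and 157 to 236 CPM in subcluster 4.

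Of actin and motility genes, 17 of 32 tested were called higher and 8 lower (all genes: 21.4% and 21.3%). Marcksl1, a membrane-bound regulator of actin, had 766, 804 and 789 CPM in subcluster 12, against 42.2, 42.4 and 43.7 CPM in subcluster 4. Tmsb4x, which binds actin monomers, had 48012, 39310 and 45140 CPM in subcluster 12, against 20345, 19919 and 20274 CPM in subcluster 4. Its log2 fold change between the gates was 1.55 ± 0.07 (edgeR adjusted p = 2.0e-12).

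Transcription factor genes were called higher in 16 of 36 tested and lower in 14 (all genes: 21.4% and 21.3%). Stat4, the interleukin 12 signal transducer, had 274, 234 and 295 CPM in subcluster 12, against 29.9, 24.5 and 29.4 CPM in subcluster 4. Batf3, needed for type 1 dendritic cells, had 215, 200 and 263 CPM in subcluster 12, against 62.5, 57.1 and 56.8 CPM in subcluster 4, and 225 to 286 CPM in subcluster 6. Batf3 and Irf8 were the 2 of 7 tested genes of the type 1 dendritic cell list that were called higher. Another 4 were called lower, among them Naaa and Wdfy4, with log2 fold changes of -4.20 and -1.85. The median of that list was -1.54. Irf8 had 656, 303 and 582 CPM in subcluster 12, against 129, 120 and 122 CPM in subcluster 4 and 2088 to 2374 CPM in subcluster 6. It did not pass between the gates (0.38 ± 0.18 on the log2 scale, edgeR adjusted p = 0.12). Without cells with plasmacytoid UMIs in either gate, the value was 1.93 ± 0.28 (edgeR adjusted p = 2.7e-05). Spib, a factor also known from plasmacytoid cells, had 61.5, 50.5 and 73.2 CPM in subcluster 12, against 5.80, 3.66 and 5.35 CPM in subcluster 4. Its gate value was 1.52 ± 0.27 and 3.12 ± 0.45 without plasmacytoid UMIs (edgeR adjusted p = 0.00017 and 2.6e-05). Tcf4, named after its values were seen, turned: the log2 fold change was 1.41 ± 0.13 between subclusters, -0.57 ± 0.17 between the gates (edgeR adjusted p = 0.011) and 0.56 ± 0.22 without plasmacytoid UMIs (edgeR adjusted p = 0.058). Ccr9, a gut-homing receptor that is also on the plasmacytoid list, turned likewise, with 2.39 ± 0.24 between the subclusters and -1.36 ± 0.29 between the gates (edgeR adjusted p = 0.0010). Cells with a UMI of Siglech, Ly6d or Klk1 made up 20.8 to 35.2% of subcluster 12 and 26.6 to 38.6% of subcluster 4 over the mice. Without them the log2 fold change between the subclusters was 2.24 ± 0.13 for Irf8, 1.31 ± 0.22 for Tcf4 and 4.53 ± 0.34 for Spib. Irf4 overlapped between the groups, with 29.2, 26.3 and 19.6 CPM in subcluster 12 against 17.7, 24.1 and 16.3 CPM in subcluster 4, and was not called.

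**Figure D5:**
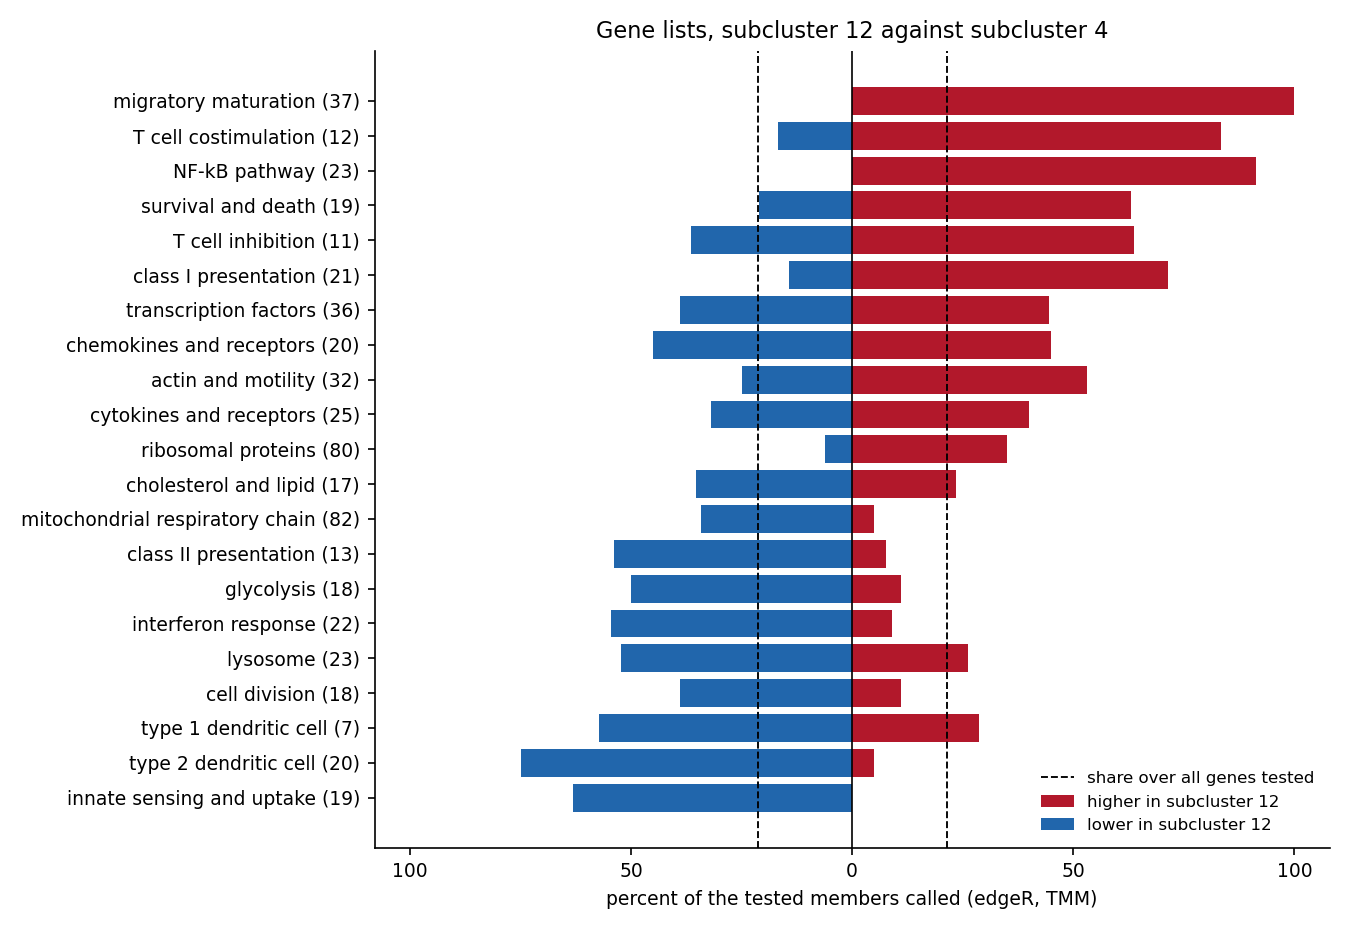
Percent of the tested members of each list called higher (right) and lower (left) in subcluster 12, with the number tested in brackets and dashed lines at 21.4% and 21.3%, the shares over all genes. Migratory maturation, NF-kB and costimulation genes are mostly on the right, and innate sensing and type 2 genes on the left.

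The other lists hold metabolic, lysosomal, interferon and housekeeping genes. Of all genes tested, 21.3% were called lower and 21.4% higher, and between the gates 16.9% and 17.1%. With plain library size, 2532 of all 8551 genes were lower and 1373 higher. Glycolysis genes were called lower in 9 of 18 tested and higher in 2, which were Eno3 and Pfkfb3. Hk2, the first enzyme of glycolysis, had 16.7, 12.1 and 12.4 CPM in subcluster 12, against 94.9, 101 and 123 CPM in subcluster 4. Lysosome genes were called lower in 12 of 23 and higher in 6, interferon response genes lower in 12 of 22 and higher in 2, and cell division genes lower in 7 of 18 and higher in 2. Cholesterol and lipid genes were lower in 6 of 17 and higher in 4, with plain library size lower in 10 and higher in 4, and between the gates lower in 4 of 15 and higher in 1. Ifitm3 had 1067, 1340 and 993 CPM in subcluster 12, against 4294, 4498 and 4571 CPM in subcluster 4. Ribosomal protein genes were called higher in 28 of 80 and lower in 5 with TMM, but higher in 4 and lower in 33 with plain library size, so no direction is given. Respiratory chain genes were lower in 28 of 82 and higher in 4, and 49 and 3 with plain library size.

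Jaml, the gene of the sorted protein, on chromosome 9 from 45079183 to 45108534, had 183, 133 and 162 CPM in subcluster 12, against 255, 213 and 223 CPM in subcluster 4 and 320 to 389 CPM in subcluster 6. The groups did not overlap, and the log2 fold change was -0.32 ± 0.12. Its call was lost when any 1 mouse was left out (edgeR adjusted p = 0.085, 0.14 and 0.11 without mouse 1, 2 and 3), and with no mouse block (edgeR adjusted p = 0.081). Those p-values are of the subcluster comparison. Between the gates the log2 fold change was -0.66 ± 0.17 (edgeR adjusted p = 0.0041), and Jaml averaged 486, 484 and 444 CPM in subclusters 0, 9 and 13, which the Cd209a gate also draws on. Without plasmacytoid UMIs the gate value was -0.51 ± 0.19 (edgeR adjusted p = 0.040). Cxadr, the gene of the JAML ligand, had 0 UMIs in both subclusters.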

How the data were processed

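Droplet transcriptomes of CD45-positive, JAML-positive tumour cells from 3 mice were used. The submitters' processing notes name Cell Ranger 3.1.0, Seurat 3.1.5 and the mm10 build; the steps behind the cell filter are not given in the sources used here. The deposited matrix holds raw UMI counts of 15416 genes in 5976 cells. An annotation deposited with it gives per cell the percent of mitochondrial UMIs, total counts, hashtag and cluster numbers. 8 cells with no hashtag were left out. The antibody-tag library was not used here, and the cells hold 1499 to 5999 genes and at most 5% mitochondrial UMIs.

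For each mouse the UMI counts of a class's cells were added up (at least 10 cells were asked for, and every class had them). edgeR 4.0.16 in R 4.3.3 (quasi-likelihood F test, TMM, filterByExpr) was run with the mouse as a block, which pairs the classes since they come from the same animal, and p-values were adjusted by Benjamini-Hochberg over all genes tested. SE is the absolute log2 fold change divided by the square root of the F statistic of its test. Where 1 class is near 0 it may be too small. The split of UMIs used a fixed seed and a share of 0.5, and Fscn1 and Cd209a were left out of its fit. Thinned cells had 14628 UMIs, and 29 of 125 and 36 of 524 cells were too shallow. The fit was tested on simulated counts of 8551 genes: for subcluster 12 against 4 it recovered 63.2% of 95 genes changed 2-fold and 99% of 98 changed 4-fold, with 3.09% of calls false. Far fewer genes were changed there than the 42.7% called in the data, and evenly in both directions. The share of false calls therefore need not hold for the data. Promoter letters are from RefSeq, and gene coordinates from GENCODE M21.

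Members and lists were chosen with earlier results of these data known. Genes with values were picked, by role, from the 12 with the largest fold change in each direction (at least 50 CPM in the higher class, same direction in each mouse, no receptor segments, ribosomal, mitochondrial or unnamed genes), the 4 members of each list with the smallest adjusted p, and a fixed set; exceptions are named as such. Alternatives were RLE size factors, no low-count filter, DESeq2 1.42.0, no block, leaving out each mouse, a threshold of 0.01, thinned cells, removal of lineage-conflicting cells, another split and a gate at 3 UMIs; plain library size and 2 removals of cells with plasmacytoid UMIs were added after the data were seen.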

Additional observations from a re-analysis of the deposited data

How the results depend on the processing

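With DESeq2 the number of genes called fell to 2328 between the subclusters (1266 higher, 1062 lower) and to 1590 between the gates (869 higher, 721 lower), against 3653 and 2584 with edgeR. Leaving out 1 mouse gave 2720 to 3776 and 1930 to 2285 genes. Without the mouse as a replicate block 3738 and 2694 genes were called, and leaving it out ended the call of Jaml and gave one to Zbtb46, with no other gene of the naming rule changing its call. Every other alternative run stayed within 1.5 times of these counts. Over the 111 tested genes of the naming rule and 1436 values, 1409 kept direction and call, 19 lost the call, 8 gained it and none (0) reversed. Genes named outside that rule are not in these counts, and among them Tcf4 (1.41 and -0.57) and Ccr9 (2.39 and -1.36) had opposite log2 fold changes between the subclusters and between the gates, and Havcr2 lost its call between the gates. Of the 111, those that lost it were Jaml, Irf8, Idi1, Mcm3, Mcm6 and Cd74, and Irf4 and Zbtb46 gained it. The counts of list members moved by over 1.5 times in 16 of 273 values, all in the cholesterol, interferon, cell division, ribosomal and respiratory chain lists. The cause of these moves was not tested. Precision is set by 3 mice and by 24 cells of subcluster 12 in mouse 2.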
